A study of Saccharomyces cerevisiae with 9 samples.

Results

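The genes of the outermost 20 kb of the yeast chromosomes were followed across 3 diploid strains of *Saccharomyces cerevisiae*. A gene was included when its locus in the deposited table lay on chromosomes I to XVI and ended within 20 kb of the left end, or began within 20 kb of the highest locus end of its chromosome. This gave 319 of the 7126 genes of the table, from 32 chromosome ends, with 5 to 14 genes at an end and a median of 10. Distances below run from the chromosome end to the far edge of a locus. The highest locus end lay 222 to 3527 bp short of the sequence end of the R64 assembly, so distances at right ends are that much too short. A set of 6 genes (YAR071W, YBR296C, YHL047C, YLL061W, YLL062C and YOL158C) was left out by rule, and 5 of them lay within the limit. Of the 319 genes, 222 were alone at their locus and 97 shared it with another gene, so that their values are splits made by the program.

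Poly-A RNA was sequenced from 3 samples each of sam1Δ/sam1Δ, sam2Δ/sam2Δ and wildtype cells. All were MATa/MATα diploids in the W303 background that share leu2, his3, trp1, ura3 and ade2 alleles, are heterozygous at LYS2 and CAN1, and carry a pair of marked chromosome fragments (with TRP1 and SUP11). The labels give 1 strain number for each genotype and do not say whether its samples were 1 isolate. The library names add a further number that differs between samples of a strain, and its meaning is not given. Both copies of SAM1 were replaced by KANMX in sam1Δ/sam1Δ, which grew in SC with G418. Both copies of SAM2 were replaced by LEU2 in sam2Δ/sam2Δ, which grew in SC without leucine, and wildtype grew in SC. Strain and medium therefore change together and cannot be told apart. Cells grew at 30 °C to an OD600 of 0.5 to 0.6. SAM1 and SAM2 encode the S-adenosylmethionine synthetases, which make the main methyl donor of the cell.

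Yeast chromosomes end in short repeats of T and G. Inward of them lies an X element, and at some ends Y′ elements, which carry helicase genes, stand between the X element and the repeats. Silent chromatin made by the Sir proteins spreads inward from many ends and represses genes placed there. Subtelomeric genes fall into families that were copied from end to end, among them the PAU cell wall mannoproteins, the COS membrane proteins, sugar and polyol transporters, maltose genes and the THI genes of thiamine synthesis. A read from such a copy may match several places in the genome.

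The sequences below, read from the R64 assembly, show how alike copies at different ends are. The last 80 bases of chromosome XIV (chrXIV:784254-784333, plus strand) are shown as an example of the terminal repeat.
XIV right: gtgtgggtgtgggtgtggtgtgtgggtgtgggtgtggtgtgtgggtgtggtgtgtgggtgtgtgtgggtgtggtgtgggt
HXT17 at XIV right and its relative HXT13 on the left arm of chromosome V differed in 76 of 1695 bases (95.5% identical), and their longest shared run was 170 bases. The run is shown with its flanks because HXT17 is one of the genes that changed most, and capitals mark the bases that differ. HXT17 lies at chrXIV:772840-773039 on the plus strand and HXT13 at chrV:22849-23048 on the minus strand.
HXT17: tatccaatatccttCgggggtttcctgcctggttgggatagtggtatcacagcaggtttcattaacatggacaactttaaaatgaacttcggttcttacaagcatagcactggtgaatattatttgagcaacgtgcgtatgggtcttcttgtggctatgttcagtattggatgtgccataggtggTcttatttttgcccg
HXT13: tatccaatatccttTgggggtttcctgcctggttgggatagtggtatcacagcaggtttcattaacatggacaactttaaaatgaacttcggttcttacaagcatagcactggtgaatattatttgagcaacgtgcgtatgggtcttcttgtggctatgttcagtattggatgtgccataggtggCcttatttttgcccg
THI5, THI11, THI12 and THI13 lie at 4 different ends, have 1023 bases each and were 97.8 to 99.3% identical. Bases 409 to 528 are shown, the stretch of 120 bases with the most differences, and capitals mark positions not shared by all 4 genes. The stretches are chrVI:13337-13456 (plus), chrX:729069-729188 (minus), chrXIV:15240-15359 (plus) and chrIV:16612-16731 (plus).
THI5: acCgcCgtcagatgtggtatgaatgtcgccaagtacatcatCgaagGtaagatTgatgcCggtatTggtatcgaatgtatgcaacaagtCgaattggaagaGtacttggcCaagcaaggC
THI11: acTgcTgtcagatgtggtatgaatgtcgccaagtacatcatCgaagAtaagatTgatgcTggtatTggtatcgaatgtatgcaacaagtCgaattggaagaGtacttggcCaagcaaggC
THI12: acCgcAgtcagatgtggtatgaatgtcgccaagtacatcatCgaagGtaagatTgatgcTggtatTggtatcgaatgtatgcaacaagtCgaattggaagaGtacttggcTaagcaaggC
THI13: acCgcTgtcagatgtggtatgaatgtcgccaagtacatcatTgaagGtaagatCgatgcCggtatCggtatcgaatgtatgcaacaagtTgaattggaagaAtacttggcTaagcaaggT
The last pair compares bases 132 to 318 of YIL175W, an annotated pseudogene at IX left (chrIX:9314-9500, plus), with a stretch at XIV right (chrXIV:781572-781758, minus) that overlaps YNR075C-A. They differed in 1 of 187 bases, in capitals. All 244 of the 75-base words of YIL175W also occurred on chromosome X, and 38 of them at XIV right.
YIL175W: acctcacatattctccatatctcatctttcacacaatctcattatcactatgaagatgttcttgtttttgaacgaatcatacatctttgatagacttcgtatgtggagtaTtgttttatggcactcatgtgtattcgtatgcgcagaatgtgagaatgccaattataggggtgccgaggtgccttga
XIV right copy: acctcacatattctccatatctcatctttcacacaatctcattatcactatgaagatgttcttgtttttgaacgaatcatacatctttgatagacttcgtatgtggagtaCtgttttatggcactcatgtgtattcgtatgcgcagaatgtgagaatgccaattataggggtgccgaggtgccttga

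The 9 libraries had total signals of 9375285 to 11867358, and the members held 1.10 to 2.15% of them. The signal is the estimated read number of a gene after scaling by library. One read was worth a signal of 0.443 to 1.06 in the sam1Δ/sam1Δ libraries, 0.766 to 2.18 in those of sam2Δ/sam2Δ and 0.603 to 1.21 in wildtype, so a signal of 10 stands for 4.59 to 22.6 reads. SAM1 had 1.06, 1.77 and 0 in the sam1Δ/sam1Δ libraries, 2417, 3519 and 3406 in those of sam2Δ/sam2Δ and 17140.4, 6030.3 and 4589 in wildtype. SAM2 had 18932, 25482 and 22537 in the sam1Δ/sam1Δ libraries, 2.43, 4.36 and 6.89 in those of sam2Δ/sam2Δ and 39411, 17280.0 and 19627 in wildtype. On the first principal component of all genes, which held 52.4% of the variance, wildtype replicate 1 had the highest score, 47.4. Replicates 2 and 3 of sam1Δ/sam1Δ (26.6 and 23.5) and replicate 3 of sam2Δ/sam2Δ (9.07) came next. The remaining libraries had -33.5 to -14.4, so this axis divided the libraries of every strain. In sam2Δ/sam2Δ replicate 3, most but not all α-specific and haploid-specific genes, which MATa/MATα diploids repress, were high. The α-factor gene MF(ALPHA)1 was at 1473 against 18.2 to 56.6 in the other 8 libraries, and the haploid-specific STE18 at 149 (other 8: 2.60 to 14.5). The α-specific MF(ALPHA)2, at 47.5, lay within the 28.3 to 70.3 of the other 8. The haploid-specific FAR1, at 305, lay below replicates 1 and 2 of sam2Δ/sam2Δ (467 and 436). The summed signal of the 9 haploid-specific genes was 1533 to 2910 in sam2Δ/sam2Δ, 1447 to 1472 in sam1Δ/sam1Δ and 1184 to 1456 in wildtype, and that of the 4 α-specific genes 479 to 2320, 422 to 457 and 412 to 423 in the same strains. For the 6 a-specific genes it was 531 to 876 in sam2Δ/sam2Δ, 471 to 557 in sam1Δ/sam1Δ and 424 to 572 in wildtype. None of these genes was at 0 in all libraries. The part of this axis and of these marker genes in the results below was not tested. Counts without wildtype replicate 1 and sam2Δ/sam2Δ replicate 3 are given where they matter.

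The signal fell steeply toward the ends in all strains. Among the members, 49.2 to 50.5% reached a signal of 10 in sam1Δ/sam1Δ libraries, 46.7 to 50.5% in sam2Δ/sam2Δ and 50.8 to 53.9% in wildtype. Among the 308 genes 20 to 40 kb from an end it was 90.3 to 91.2% over the 9 libraries, and among the 6438 genes further in 87.2 to 87.7%. Within 5 kb the share was 30.4 to 33.3% in sam1Δ/sam1Δ, 18.8 to 29% in sam2Δ/sam2Δ and 29 to 34.8% in wildtype, for 69 genes. It was 32.4 to 38.2% at 5 to 10 kb (102 genes), 54.4 to 62% at 10 to 15 kb (79 genes) and 84.1 to 89.9% at 15 to 20 kb (69 genes). The median signal per kb of gene length was 0.568 to 4.17 within 5 kb and 168 to 204 at 15 to 20 kb, over the 9 libraries, against 362 to 402 in the rest of the chromosomes. In this level the 3 sam2Δ/sam2Δ libraries (0.568 to 2.31) lay below the 3 sam1Δ/sam1Δ (2.66 to 4.17) and the 3 wildtype libraries (2.55 to 3.92) within 5 kb. At 5 to 10 kb the sam1Δ/sam1Δ (2.67 to 2.90) and sam2Δ/sam2Δ libraries (1.46 to 3.31) lay below those of wildtype (3.56 to 5.35). From 10 to 20 kb the strains overlapped. Within 10 kb these medians stand for few reads per kb, and the differences were not tested. In sam2Δ/sam2Δ replicate 2, where 1 read was worth 2.18, they were below 1 read per kb (0.568 within 5 kb and 1.46 at 5 to 10 kb). One read was worth 0.766 to 2.18 in sam2Δ/sam2Δ, against 0.443 to 1.06 in sam1Δ/sam1Δ and 0.603 to 1.21 in wildtype. The part of this difference in depth in the lower sam2Δ/sam2Δ medians was not tested.

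**Figure D1:**
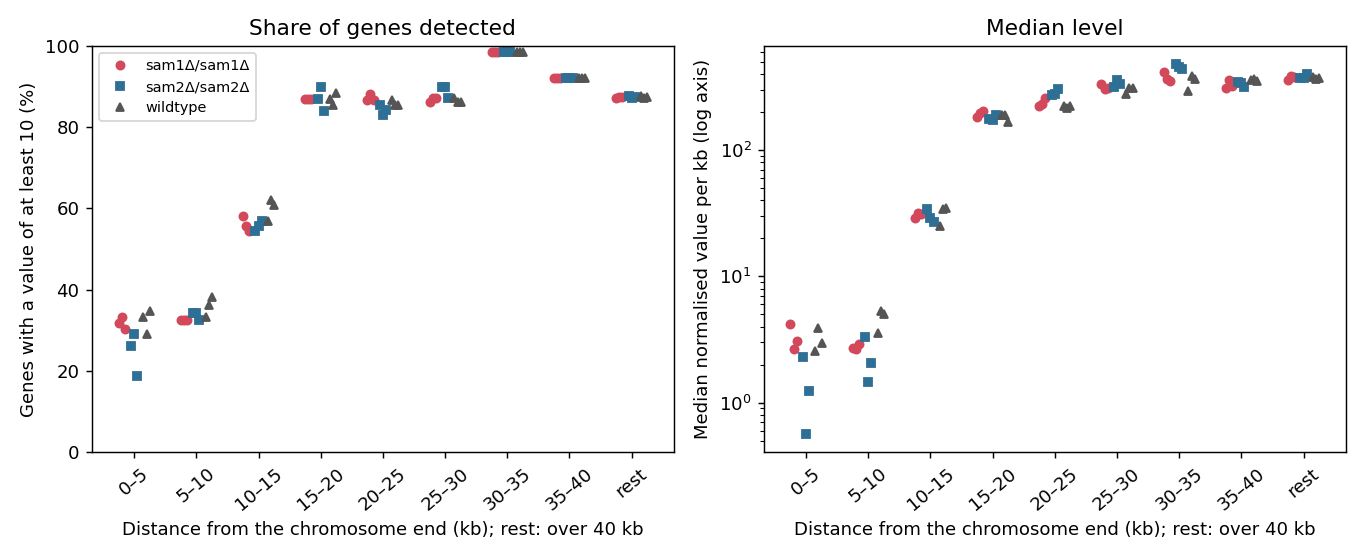
Share of genes with a signal of at least 10 (left) and median signal per kb of gene length on a log axis (right), by distance from the chromosome end in steps of 5 kb and for the rest of the chromosomes; each point is 1 library. Within 5 kb the share was 18.8 to 34.8%, and at 15 to 20 kb 84.1 to 89.9%.

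Low signal at the ends went with repeated sequence. Sequences were read at the annotated coordinates or, for unannotated genes alone at a locus, at that locus. Of the 274 members with such a sequence, 120 had fewer than 50% unique 75-base words in the genome (43.8%), against 3.51% of the 5977 other such genes, and 105 were unique throughout. A total of 73 members were listed at 0 in all 9 libraries; of the 46 of them with a sequence, 35 had no unique 75-base word. Of the 42 members with no unique word 1 had a mean signal of at least 10, while 85 of the 105 fully unique members did. The share at a signal of 10 or more among unique members was 77.1 to 81%, against 95 to 95.3% among unique genes of the rest. At a gene with no unique word, lost reads and a silent gene cannot be told apart.

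The 32 ends differed widely in level. The mean summed signal of an end ran from 17.6 at X left to 66670.0 at VI right, and a single gene held a median of 60.2% of it. HXK1, a hexokinase at VI right (16.1 kb), had 81349.8, 26046 and 31191 in the sam1Δ/sam1Δ libraries, 93665, 78084 and 36631 in those of sam2Δ/sam2Δ and 18124, 100890.0 and 76987 in wildtype, and CHA1, the serine deaminase at III left (16.9 kb), had 11159, 15436 and 16659.7 in the sam1Δ/sam1Δ libraries, 20099.7, 17093 and 28674 in those of sam2Δ/sam2Δ and 18951, 16113 and 12497 in wildtype. HXK1 was low in wildtype replicate 1, in sam1Δ/sam1Δ replicates 2 and 3 and in sam2Δ/sam2Δ replicate 3, and high in the other 5 libraries. Per kb of gene length these were the highest members at any end, with mean signals of 41380.0 and 16070.0. They were followed by HYR1, a glutathione peroxidase at IX right (6446), MSC1, a gene with a role in meiotic recombination at XIII left (6298), and DLD3, a 2-hydroxyglutarate transhydrogenase at V left (5967). COS6, at VII right and 9.01 kb from the end, had 5954 per kb and was the highest COS gene. At the low extreme the leading member was VTH2 at X left with 3.43 per kb and YAR064W at I right with 17.9.

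**Figure D2:**
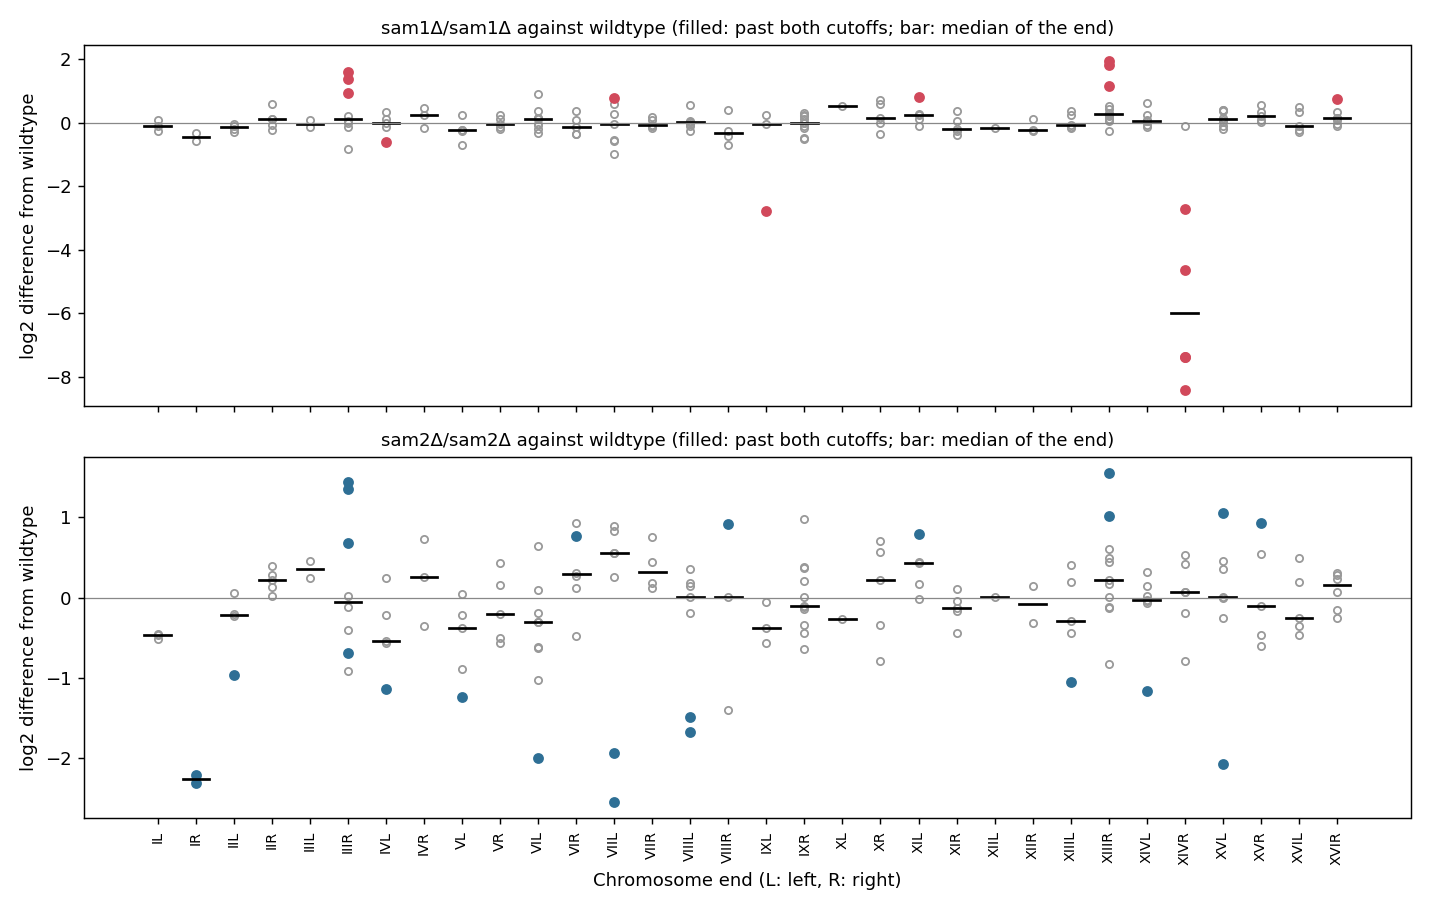
log2 difference from wildtype for the tested members at each of the 32 ends, sam1Δ/sam1Δ above and sam2Δ/sam2Δ below; filled points passed both cutoffs and bars are the median of the end. XIV right has the lowest median in sam1Δ/sam1Δ (-6.01) and I right in sam2Δ/sam2Δ (-2.26).

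The first comparison asks which end genes change when SAM1 is lost. In sam1Δ/sam1Δ, neighbouring genes at XIV right were listed at 0 and neighbours at XIII right and III right were higher. Calls used the cutoffs of the study, which it applied to P values from Cuffdiff. Here the P came from limma on log2(signal + 1). A call needed an unadjusted P no higher than 0.05 and a log2FC that reached 0.58 in either direction. The log2(signal + 1) scale understates changes of low genes. The calls are therefore not those of the study. Testing was limited to genes that reached a signal of 10 in 3 or more of the 6 libraries. Of 168 such members, 16 were called (9.52%), 9 higher and 7 lower, while 1.15% of all 6109 tested genes were called (0.622% higher and 0.524% lower). The groups did not overlap in 25 of the 168 (14 higher and 11 lower), against 6.53% of all tested genes (3.32% higher and 3.21% lower). After Benjamini-Hochberg adjustment over all genes tested with limma, 5 members passed 0.05, all at XIV right. The median log2FC was 0.03 over the members and -0.01 over all tested genes. The calls fell on 8 of the 32 ends, and 19 ends had a median below 0. The SE of the log2FC had a median of 0.29 over the members and 0.23 over other tested genes.

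XIV right carried the largest differences. AIF1, a mitochondrial cell death effector (5.94 kb), was listed at 0 in all 3 sam1Δ/sam1Δ libraries, against 338, 282 and 407 in wildtype (adjusted P = 0.000141). PDR18, an ABC transporter with a role in sterol incorporation (18.2 kb), was at 0 in the 3 sam1Δ/sam1Δ libraries, against 149, 188 and 158 in wildtype (adjusted P = 0.000141). YNR071C, a putative aldose 1-epimerase (13.1 kb), was at 0 against 172, 152 and 172 in wildtype (adjusted P = 0.000141). MAN2, a mannitol dehydrogenase (8.75 kb), was at 0 against 24.1, 23 and 25.3 in wildtype (adjusted P = 0.00807). These 4 were the only genes of the 7126 listed at 0 in all 3 sam1Δ/sam1Δ libraries and at 10 or more in the other 6, and no gene showed such a pattern for sam2Δ/sam2Δ or wildtype. Whether the sam1Δ/sam1Δ strain lacks this stretch of chromosome or leaves it unexpressed cannot be told apart from these values. HXT17, a polyol transporter between them (10.9 kb), was not at 0: it had 8.50, 7.53 and 5.40 in sam1Δ/sam1Δ, against 50.7, 59.4 and 46.4 in wildtype (log2FC -2.72, SE 0.26, adjusted P = 0.0354). Of its 75-base words 86.6% were unique, and HXT13, chosen after its values were seen, had 29.8, 48.7 and 57.8 in the sam1Δ/sam1Δ libraries, 54.6, 43.6 and 68.1 in those of sam2Δ/sam2Δ and 58.5, 43.6 and 30.1 in wildtype.

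The 5 neighbours from AIF1 to PDR18 formed the longest run of members whose groups did not overlap in one direction at any end. In sam2Δ/sam2Δ all 5 overlapped with wildtype and none was called: AIF1 had 612, 389.8 and 392 there. PDR18 had 152, 185 and 182, MAN2 21.8, 21.8 and 34.5, YNR071C 120.1, 189 and 131 and HXT17 94.7, 56.6 and 81.2. The genes on either side were present. COS10, closer to the end at 3.63 kb, had 406, 905 and 820.0 in sam1Δ/sam1Δ, against 1447, 552 and 478 in wildtype, and the groups overlapped (log2FC -0.11, SE 0.51, adjusted P = 0.9997). In sam2Δ/sam2Δ, COS10 had 356, 459.5 and 454, below each wildtype library, and was not called. BSC5, the first gene inward of the limit (22.4 kb), had 699, 360.2 and 391 in sam1Δ/sam1Δ, against 225, 1057 and 566 in wildtype. YNR075C-A, between COS10 and the end (2.03 kb), was at 0 in the 3 sam1Δ/sam1Δ libraries and at 1.21, 4.36 and 1.53 in sam2Δ/sam2Δ, against 18.9, 4.85 and 5.43 in wildtype, and was too low to be tested in that comparison. PAU6 was at 0 in all 9 libraries and YNR077C did not exceed 2.18. The summed signal of the end was 416, 913 and 825 in the sam1Δ/sam1Δ libraries, 1358, 1309 and 1276 in those of sam2Δ/sam2Δ and 2201, 1261 and 1293 in wildtype.

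**Figure D3:**
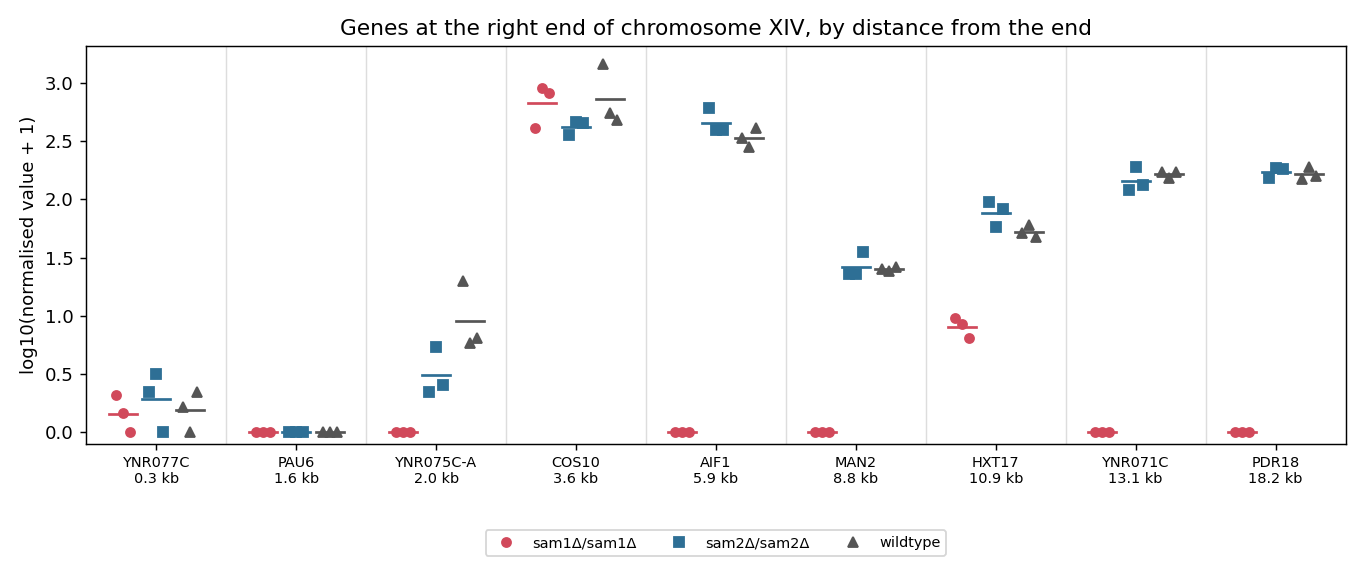
Signal of the 9 members at XIV right in each library, as log10(signal + 1), ordered by distance from the end, with bars at the mean of a strain. AIF1, MAN2, YNR071C and PDR18 are at 0 in the 3 sam1Δ/sam1Δ libraries, and COS10 is at 406 to 905 there.

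YIL175W, whose sequence recurs at XIV right, was also lower in sam1Δ/sam1Δ: it had 5.31, 3.10 and 2.16 in sam1Δ/sam1Δ, against 41, 23 and 25.9 in wildtype (log2FC -2.79, SE 0.39, adjusted P = 0.232). The groups did not overlap. In sam2Δ/sam2Δ it had 21.8, 24 and 20.7. YIL175W has no unique 75-base word and shares its locus with YIL174W, listed at 0 in all 9 libraries, so the split is an estimate. An identical stretch lies on chromosome X, where YJL222W-A and YJL222W-B were also listed at 0 in all 9 libraries. HXT15 at IV left (13.4 kb), another polyol transporter with 8.96% unique words, had 20.2, 19.9 and 25.9 in sam1Δ/sam1Δ, against 28, 41.2 and 34.4 in wildtype (log2FC -0.62, SE 0.24, adjusted P = 0.9997). That call was lost without any single library other than wildtype replicate 1, and in 9 of 14 alternatives.

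At XIII right, 3 neighbours 3.71 to 6.22 kb from the end were higher in sam1Δ/sam1Δ without overlap. ERR3, an enolase, had 189, 263 and 271 in sam1Δ/sam1Δ, against 62.4, 61.8 and 79.6 in wildtype (log2FC 1.80, SE 0.21, adjusted P = 0.0889). SNO4, a possible chaperone of the Hsp31 family, had 572, 464 and 436 in sam1Δ/sam1Δ, against 224, 183 and 248 in wildtype (log2FC 1.16, SE 0.18, adjusted P = 0.31). YMR321C, annotated as a paralog of the homocysteine methyltransferase gene SAM4, had 98.8, 107 and 79.4 in sam1Δ/sam1Δ, against 37.1, 15.8 and 22.9 in wildtype (log2FC 1.94, SE 0.33, adjusted P = 0.466). These 3 were called in every alternative run for them. Unique 75-base words made up 47.7, 31.2 and 44.3% of ERR3, SNO4 and YMR321C. SAM4 itself, on the left arm of chromosome XVI and chosen after its values were seen, had 2436, 1308 and 1159.8 in the sam1Δ/sam1Δ libraries, 2845, 2465 and 1636 in those of sam2Δ/sam2Δ and 1285, 1921 and 2169 in wildtype, with overlap of all strains. In sam2Δ/sam2Δ, ERR3 had 144, 152 and 119 (log2FC 1.02, SE 0.22, adjusted P = 0.222), while SNO4 (0.49) and YMR321C (0.61) had positive log2FC and were not called. YMR320W, the next gene inward (7.06 kb) and of unknown function, had 216, 144 and 151 in sam2Δ/sam2Δ, against 34.5, 73.9 and 70.5 in wildtype (log2FC 1.55, SE 0.35, adjusted P = 0.224), and had 117, 65.6 and 59.4 in sam1Δ/sam1Δ. Further in, ADH6, an NADPH-dependent alcohol dehydrogenase, and FET4, a low-affinity iron transporter, were not called in either mutant.

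At III right, 3 neighbours 13.7 to 15.4 kb from the end were higher in both mutants, which share the same wildtype libraries. YCR099C had 216, 276 and 314 in the sam1Δ/sam1Δ libraries, 229, 226 and 256.5 in those of sam2Δ/sam2Δ and 57.9, 114 and 98.3 in wildtype, with no overlap of either mutant with wildtype. EMA35, which acts in targeting proteins to mitochondria, had 194, 317 and 406 in the sam1Δ/sam1Δ libraries, 299.8, 242 and 325 in those of sam2Δ/sam2Δ and 78.7, 155 and 115 in wildtype. Neither mutant overlapped with wildtype in these genes. For sam1Δ/sam1Δ the log2FC was 1.60 in YCR099C and 1.38 in EMA35, and for sam2Δ/sam2Δ 1.44 in YCR099C and 1.35 in EMA35; the 4 calls held in every alternative run for them, and none passed adjustment (adjusted P = 0.573 and 0.222 for YCR099C). The genes share a locus, so the split between them is an estimate. YCR101C had 69.1, 138 and 158 in the sam1Δ/sam1Δ libraries, 99.5, 78.4 and 113 in those of sam2Δ/sam2Δ and 47.5, 77.6 and 56.7 in wildtype; it was called in both mutants (log2FC 0.94 and 0.68), overlapped with wildtype in sam1Δ/sam1Δ only, and lost the sam1Δ/sam1Δ call without sam1Δ/sam1Δ replicate 2 or 3 or wildtype replicate 1 or 3 and the sam2Δ/sam2Δ call when replicates 1 or 3 of sam2Δ/sam2Δ or of wildtype were left out. GIT1, the permease for glycerophosphoinositol further in (19.1 kb), was at 1587 in wildtype replicate 1 and at 242 and 298 in the other wildtype libraries, with 216, 307 and 318 in the sam1Δ/sam1Δ libraries and 225, 187 and 409.6 in those of sam2Δ/sam2Δ.

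**Figure D4:**
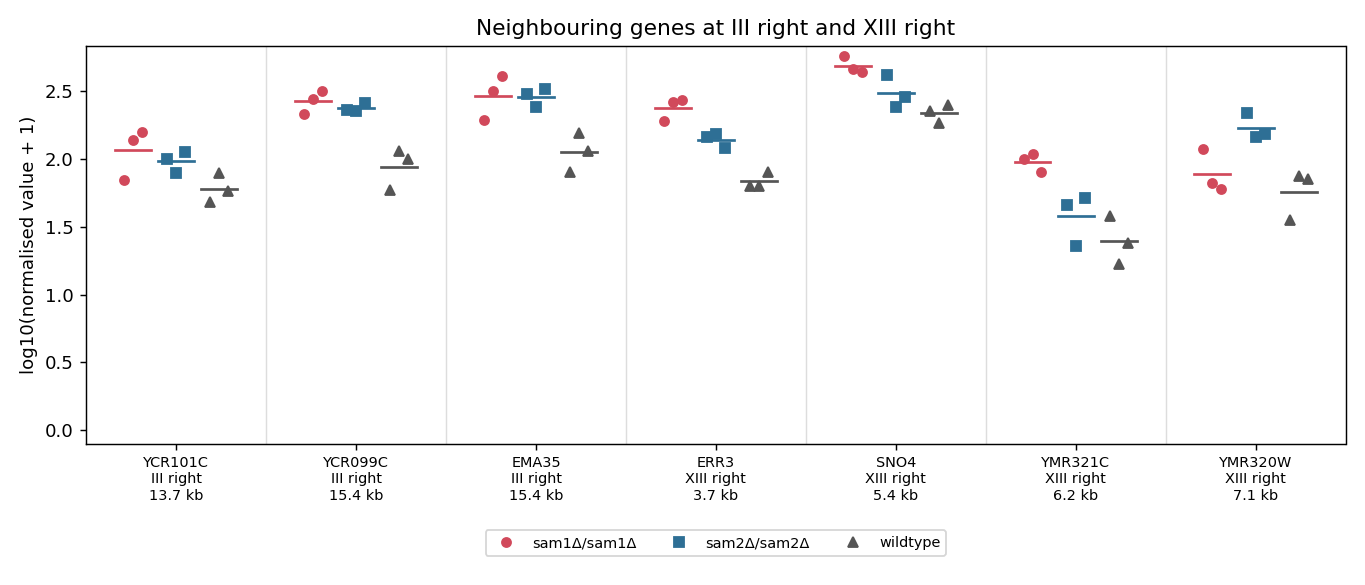
Signal of 3 neighbouring genes at III right and 4 at XIII right in each library, as log10(signal + 1), with bars at the mean of a strain. YCR099C and EMA35 are above wildtype in all libraries of both mutants, ERR3, SNO4 and YMR321C in all sam1Δ/sam1Δ libraries and YMR320W in all sam2Δ/sam2Δ libraries.

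The other called members in sam1Δ/sam1Δ were single genes. YGL262W, of unknown function (VII left, 5.84 kb), had 112, 154 and 122 in sam1Δ/sam1Δ, against 79.4, 61.8 and 80.8 in wildtype (log2FC 0.79, SE 0.20, adjusted P = 0.9997). YPR195C (XVI right, 19.7 kb) had 71.2, 81.5 and 79.95 in sam1Δ/sam1Δ, against 65.1, 42.4 and 35 in wildtype (log2FC 0.74, SE 0.26, adjusted P = 0.9997), and lost the call without replicate 2 or 3 of either strain. MCH2 at XI left, a homolog of monocarboxylate permeases named because it completes the 16, had 59.5, 95.3 and 109.7 in sam1Δ/sam1Δ, against 34.5, 52.1 and 63.3 in wildtype (log2FC 0.80, SE 0.33, adjusted P = 0.9997).

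The second comparison asks the same of the loss of SAM2. In sam2Δ/sam2Δ, 9 of the tested genes nearest the ends were lower, among them helicase-like genes, an aryl-alcohol dehydrogenase, a COS gene and a paralog of IMD2. Of 163 tested members, 24 were called (14.7%), 10 higher and 14 lower, while 9.85% of all 6099 tested genes were called (5.0% higher and 4.85% lower). The groups did not overlap in 37 of the 163 (16 higher and 21 lower), against 22.3% of all tested genes (11.1% higher and 11.2% lower), a share near the background. None of the members passed 0.05 after adjustment with limma, 7 of all tested genes did, and 25 members had an unadjusted P of at most 0.05. The median log2FC was 0.01 over the members and -0.01 over all tested genes. The calls fell on 16 of the 32 ends. Without wildtype replicate 1 and sam2Δ/sam2Δ replicate 3 together 30 members were called, 16 higher and 14 lower, and 18 of the 24 were among them. The share of all genes called in that fit is not given, so the changed count does not speak of the ends alone.

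Of the 14 lower calls, 9 lay within 5 kb. Within 5 kb of an end 9 of 23 tested members were lower (39.1%) and 1 was higher, and the median log2FC was -0.33. Of the 69 members there, only these 23 were tested. AAD15, YAR073W and YAR075W were below 10 in all 3 sam2Δ/sam2Δ libraries and passed the filter through wildtype alone. YFL067W also passed only with its wildtype libraries. For genes that enter this way a lower value is favoured. Over all tested genes 4.85% were lower and the median was -0.01. At 5 to 10 kb 2 of 35 were lower (5.71%), at 10 to 15 kb 1 of 44 (2.27%), and at 15 to 20 kb 2 of 61 (3.28%), shares near that of all tested genes. In sam1Δ/sam1Δ none of the 23 members within 5 kb was lower, 1 was higher and the median was -0.06. These steps were chosen with the values known. The 9 genes stood at 7 loci of 7 ends, 4 of which have an annotated Y′ element. In the alternatives with the same 23 genes, 8 or 9 were lower, also without sam2Δ/sam2Δ replicate 3 (8), without wildtype replicate 1 (9) and without both (9). With no filter on low values 14 of 50 were lower, and with a mean of at least 50 4 of 12. The shares of all genes lower in these alternatives are not given, so these counts have no background beside them.

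At ends with an annotated Y′ element 7 of 75 tested members were lower in sam2Δ/sam2Δ (9.33%) and 2 higher, against 7 of 88 lower (7.95%) and 8 higher at the other ends. YEL077C, a helicase-like gene (V left, 4.10 kb), had 104, 161 and 107 in sam2Δ/sam2Δ, against 215, 329.7 and 336 in wildtype (log2FC -1.23, SE 0.27, adjusted P = 0.222). YBL113C, another helicase-like gene (II left, 2.90 kb), had 179.6, 194 and 126 in sam2Δ/sam2Δ, against 208, 383 and 412 in wildtype (log2FC -0.96, SE 0.32, adjusted P = 0.29), and lost the call when sam2Δ/sam2Δ replicate 3 or wildtype replicates 2 or 3 were left out. YHL050C (VIII left, 3.31 kb), of unknown function, had 31.6, 32.7 and 19.1 in sam2Δ/sam2Δ, against 74.8, 69.1 and 89.8 in wildtype (log2FC -1.48, SE 0.29, adjusted P = 0.222). In all 3 the sam2Δ/sam2Δ libraries lay below the wildtype libraries. YHL050W-A, at the same locus, had 32.8, 47.9 and 15.3 in sam2Δ/sam2Δ, against 76.8, 97 and 115 in wildtype. Of the 75-base words of YEL077C, YBL113C and YHL050C, 24.5, 29.9 and 31.1% were unique, so reads of other Y′ copies may be among them. In sam1Δ/sam1Δ, YEL077C had 255, 226 and 260.4. YBL113C had 324, 255.7 and 266 and YHL050C 71.2, 66 and 78.3 in the same libraries, and none was called. YFL067W, within the annotated telomeric region of VI left (1.36 kb) and named because it is 1 of the 24, had 7.28, 15.2 and 6.89 in sam2Δ/sam2Δ, against 40.3, 59.4 and 25.9 in wildtype (log2FC -1.99, SE 0.45, adjusted P = 0.224).

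Other genes within 5 kb were lower as well. AAD15, a putative aryl-alcohol dehydrogenase (XV left, 2.08 kb), had 8.50, 4.36 and 6.13 in sam2Δ/sam2Δ, against 24.1, 31.5 and 32 in wildtype (log2FC -2.07, SE 0.36, adjusted P = 0.214). COS12 (VII left, 3.93 kb), unique throughout, had 24.3, 13.1 and 5.36 in sam2Δ/sam2Δ, against 30.6, 69.1 and 56.7 in wildtype (log2FC -1.94, SE 0.57, adjusted P = 0.261). YAR073W and YAR075W at I right, which share a locus, are annotated together as a paralog of the IMP dehydrogenase gene IMD2. YAR073W had 1.21, 4.36 and 9.19 in sam2Δ/sam2Δ, against 17.3, 30.3 and 24.7 in wildtype (log2FC -2.31). YAR075W had 2.43, 6.53 and 3.06 in sam2Δ/sam2Δ, against 13.3, 26.7 and 25.3 in wildtype (log2FC -2.21). IMD2 itself (VIII right, 7.65 kb) had 381, 1718 and 211 in sam2Δ/sam2Δ, against 718, 1693 and 2116 in wildtype, and was not called (log2FC -1.40, SE 0.79, adjusted P = 0.489). At signals below 10, as in all 3 sam2Δ/sam2Δ libraries for AAD15, YAR073W and YAR075W, a value rests on a few reads.

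**Figure D5:**
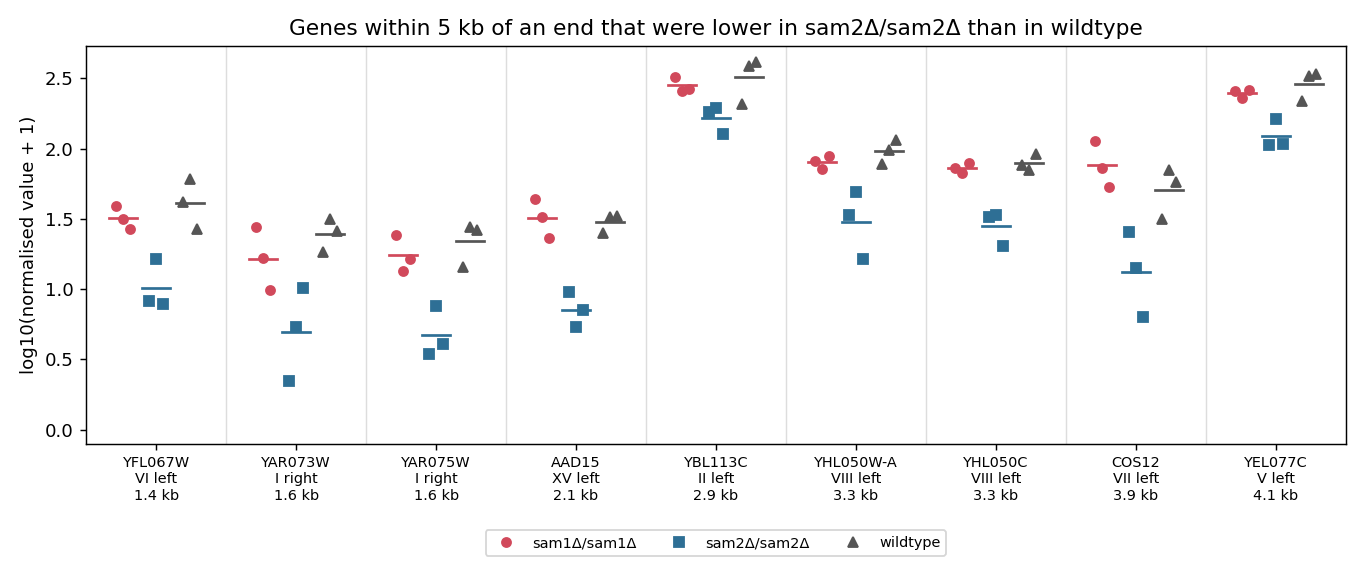
Signal of the 9 members within 5 kb of an end that were called lower in sam2Δ/sam2Δ, in each library, as log10(signal + 1), with bars at the mean of a strain, ordered by distance. The sam2Δ/sam2Δ libraries, at 1.21 to 194, lie below all wildtype libraries for each gene.

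I right was the end with the lowest median in sam2Δ/sam2Δ (log2FC -2.26 over its 2 tested genes, which share a locus). Its 10 members summed to 13.3, 21.8 and 25.3 in sam2Δ/sam2Δ and 57.4, 42.5 and 36.2 in sam1Δ/sam1Δ, against 55.3, 65.5 and 60.9 in wildtype. Neighbouring runs of 3 members without overlap in sam2Δ/sam2Δ stood at I right (YAR073W, YAR075W and YAR070C, lower) and III right (higher, above). YAR070C did not exceed 3.64 in any library and was not tested. The remaining members of I right had at most 16.9, and 4 of them were at 0 throughout.

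Further in, lower and higher genes of sam2Δ/sam2Δ were mixed. YGL262W, next to COS12 at VII left, had 17, 15.2 and 6.13 in sam2Δ/sam2Δ, against 79.4, 61.8 and 80.8 in wildtype (log2FC -2.54, SE 0.41, adjusted P = 0.214); it was higher in sam1Δ/sam1Δ, above. YML131W, similar to medium chain dehydrogenases (XIII left, 11.3 kb), had 1471, 1156 and 1334 in sam2Δ/sam2Δ, against 2594, 3159 and 2462 in wildtype (log2FC -1.05, SE 0.19, adjusted P = 0.214). ADH7, an NADPH-dependent alcohol dehydrogenase (III right, 7.12 kb), had 118, 102 and 96.5 in sam2Δ/sam2Δ, against 240.0, 137 and 151 in wildtype (log2FC -0.69, SE 0.26, adjusted P = 0.334), and was lost without sam2Δ/sam2Δ replicates 2 or 3 or wildtype replicate 1. Among higher genes, CSS3, which encodes a secreted protein (XV left, 17.8 kb), had 807, 736 and 513 in sam2Δ/sam2Δ, against 224, 348 and 434 in wildtype (log2FC 1.05, SE 0.30, adjusted P = 0.253). RPN12, a proteasome lid subunit (VI right, 17012 bp), had 2919.9, 2437 and 2524 in sam2Δ/sam2Δ, against 1118, 1806 and 1808 in wildtype (log2FC 0.77, SE 0.24, adjusted P = 0.278). SRY1, which deaminates 3-hydroxyaspartate (XI left, 18.3 kb), had 4490.3, 2748 and 2201 in sam2Δ/sam2Δ, against 1933, 1796 and 1491 in wildtype (log2FC 0.80, SE 0.29, adjusted P = 0.322). The retrotransposon gene YHR214C-B had 126, 76.2 and 87.3 in sam2Δ/sam2Δ, against 35.9, 72.7 and 45.8 in wildtype, with 3.35% unique words. Single libraries decided several of these calls: RPN12 lost it without sam2Δ/sam2Δ or wildtype replicate 1, SRY1 lost it when sam2Δ/sam2Δ replicates 1 or 2 or wildtype replicates 2 or 3 were left out, and YHR214C-B without replicate 1 or 3 of sam2Δ/sam2Δ or wildtype. YOR392W and THI13 complete the 24 and are named for that reason: YOR392W was higher (log2FC 0.93) and THI13 lower.

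The mutants were compared directly with a model of the 9 libraries together. With adjusted P limited to 0.05, 9 of 170 tested members were called (5.29%), 6 higher and 3 lower in sam2Δ/sam2Δ, against 0.603% of all 6139 tested genes (0.326% higher and 0.277% lower). The 6 higher were AIF1, PDR18, YNR071C, MAN2, HXT17 and YIL175W. HXT17 had 94.7, 56.6 and 81.2 in sam2Δ/sam2Δ, against 8.50, 7.53 and 5.40 in sam1Δ/sam1Δ (log2FC 3.26, SE 0.27, adjusted P = 0.000573), and YIL175W had 21.8, 24 and 20.7 in sam2Δ/sam2Δ, against 5.31, 3.10 and 2.16 in sam1Δ/sam1Δ (log2FC 2.41, SE 0.35, adjusted P = 0.0289). The 3 lower were YGL262W, with 17, 15.2 and 6.13 in sam2Δ/sam2Δ against 112, 154 and 122 in sam1Δ/sam1Δ (log2FC -3.34, SE 0.35, adjusted P = 0.00325), YML131W, with 1471, 1156 and 1334 in sam2Δ/sam2Δ against 3777, 3287 and 3478 in sam1Δ/sam1Δ (log2FC -1.42, SE 0.16, adjusted P = 0.00495), and AAD15, with 8.50, 4.36 and 6.13 in sam2Δ/sam2Δ against 42.5, 31.5 and 22.1 in sam1Δ/sam1Δ (log2FC -2.17, SE 0.33, adjusted P = 0.0367). Left-out libraries ended 2 calls: that of AAD15 held, among the 9 fits that leave out 1 library, only without wildtype replicate 1, and that of YIL175W only without sam1Δ/sam1Δ replicate 1 or wildtype replicate 1. Both were also lost in a fit of the 6 libraries of the mutants alone.

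Of 19 PAU genes at 19 ends, 7 were at 0 throughout, 1 had a mean of at least 10, 2 could be tested in each comparison with wildtype and none was called; PAU24 was highest, with 1.06, 21.7 and 13 in the sam1Δ/sam1Δ libraries, 7.28, 28.3 and 3.83 in those of sam2Δ/sam2Δ and 18.2, 2.42 and 10.2 in wildtype. Of 11 COS genes, 9 were tested in each comparison with wildtype, none was called in sam1Δ/sam1Δ (median log2FC 0.04) and COS12 alone, lower, in sam2Δ/sam2Δ (median 0.22), where 4.85% of all tested genes were lower. COS6 had 7645, 4170.2 and 4371 in the sam1Δ/sam1Δ libraries, 11064, 10813 and 6592 in those of sam2Δ/sam2Δ and 3707, 6721 and 6591 in wildtype. Its neighbour in level, COS8, had 3495, 2529 and 2559 in the sam1Δ/sam1Δ libraries, 3235, 3114 and 2119 in those of sam2Δ/sam2Δ and 2034, 3316 and 3100.3 in wildtype. All strains overlapped in COS8. Of the 8 YRF1 helicase genes of Y′ elements, 6 were at 0 in all libraries and YRF1-4 had 19.1, 17.3 and 16.2 in the sam1Δ/sam1Δ libraries, 15.8, 21.8 and 13 in those of sam2Δ/sam2Δ and 26.7, 15.8 and 21.1 in wildtype. YRF1-4 has 1.84% unique words, so its value cannot be assigned to 1 copy.

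Of the thiamine genes, THI12 and THI13 were lower in sam2Δ/sam2Δ. THI12 (XIV left) had 96.7, 141 and 116 in the sam1Δ/sam1Δ libraries, 82.5, 39.2 and 55.9 in those of sam2Δ/sam2Δ and 218, 77.6 and 123 in wildtype and was called in sam2Δ/sam2Δ (log2FC -1.16, SE 0.44, adjusted P = 0.339). THI13 (IV left) had 58.4, 62 and 59.4 in the sam1Δ/sam1Δ libraries, 30.3, 28.3 and 16.8 in those of sam2Δ/sam2Δ and 70.9, 41.2 and 56.7 in wildtype and was called too (log2FC -1.14, SE 0.34, adjusted P = 0.267); it is named because it completes the 24. Values of THI5 were 29.8, 47.4 and 55.1 in the sam1Δ/sam1Δ libraries, 40.05, 15.2 and 14.5 in those of sam2Δ/sam2Δ and 78.7, 18.2 and 56.7 in wildtype (log2FC -1.03 in sam2Δ/sam2Δ). THI11, chosen after its values were seen, had 93.5, 58.5 and 60.5 in the sam1Δ/sam1Δ libraries, 55.8, 47.9 and 24.5 in those of sam2Δ/sam2Δ and 76.1, 59.4 and 76.6 in wildtype (log2FC -0.78 in sam2Δ/sam2Δ). In the list of 8 thiamine and vitamin B6 genes, 2 were lower in sam2Δ/sam2Δ and none higher (4.85% of all tested genes were lower), with a median of -0.70 against -0.01 over all tested genes; in sam1Δ/sam1Δ none was called (median 0.02). THI12 lost the call when sam2Δ/sam2Δ replicates 2 or 3 or wildtype replicates 1 or 3 were left out. The genes are near copies, as the stretches above show, with 26.2 to 53.0% unique words, so these 4 values are not independent. SNZ2, SNZ3, SNO2 and SNO3 were not called in either mutant.

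Among 6 aryl-alcohol dehydrogenase genes AAD15 alone was called, lower in sam2Δ/sam2Δ; AAD10, the highest, had 1045, 2075 and 2003 in the sam1Δ/sam1Δ libraries, 1814, 1677 and 1394 in those of sam2Δ/sam2Δ and 1680.3, 1137 and 683 in wildtype. Of 3 hexose transporter genes, HXT16 was at 0 throughout and HXT15 and HXT17 are given above. Of 4 mannitol and sorbitol genes, SOR2 reached at most 0.603 and SOR1 17.4. Of 10 maltose, isomaltose and sucrose genes 7 were tested and none was called. MAL31, the maltose permease, had 2861, 1663 and 1769 in the sam1Δ/sam1Δ libraries, 3362, 2659 and 1965 in those of sam2Δ/sam2Δ and 1542, 3028 and 2822 in wildtype. None of 5 iron and siderophore genes, 3 sulfur and amino acid genes, the flocculin FLO10 or the acid phosphatase PHO12 was called. FLO10 had 491, 395 and 485 in the sam1Δ/sam1Δ libraries, 387, 392 and 359.9 in those of sam2Δ/sam2Δ and 165, 478 and 546 in wildtype, with wildtype replicate 1 lowest. Of 5 multidrug transporters 4 were tested, and against wildtype PDR18 alone was called, lower in sam1Δ/sam1Δ. The lists of this paragraph are short, and 1.15% of all tested genes were called in sam1Δ/sam1Δ and 9.85% in sam2Δ/sam2Δ. No member came from the biotin or aquaporin lists.

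The silent mating-type cassette HML lies at III left, with its genes 13018 and 14119 bp from the end. HMLALPHA2 and HMLALPHA1 were at 0 in all 9 libraries, including sam2Δ/sam2Δ replicate 3, but they have no unique 75-base word, since the same sequence stands at MAT. VBA3, nearer the end, reached 0.603 in 1 library. Of 49 genes for silencing, telomere upkeep and chromatin, none was called in sam1Δ/sam1Δ, against 1.15% of all tested genes. With sam2Δ/sam2Δ 4 were called, 2 higher and 2 lower, against 9.85% of all tested genes. SIR1, which acts in the silencing of the mating cassettes, had 744, 507 and 786 in sam2Δ/sam2Δ, against 501, 400.0 and 372 in wildtype (log2FC 0.66, SE 0.23, adjusted P = 0.302), and the deacetylase gene HST3 had 261, 253 and 196 in sam2Δ/sam2Δ, against 138, 145 and 173 in wildtype (log2FC 0.63, SE 0.20, adjusted P = 0.282). TUP1, a general corepressor, had 1045, 1267 and 1014 in sam2Δ/sam2Δ, against 2263, 1919 and 2064 in wildtype (log2FC -0.91, SE 0.17, adjusted P = 0.222), and the helicase gene PIF1, an inhibitor of telomerase, had 200.2, 362 and 317 in sam2Δ/sam2Δ, against 456, 430.3 and 519.7 in wildtype (log2FC -0.72, SE 0.25, adjusted P = 0.309).

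The limit of 20 kb cuts through expressed regions. Just inside it were YIL171W (19.8 kb, mean signal 21.5), YPR195C (19.7 kb, 57.9), FDC1 (19.6 kb, 724) and YMR315W-A (19.5 kb, 12.2). Just outside were TOG1 (20.2 kb, 478), MAL13 (20.3 kb, 1620.0), YHR214W (20.4 kb, 11.2) and PRE4 (20.5 kb, 2750.0). In the zone of 20 to 40 kb, 2.84% of 282 tested genes were called in sam1Δ/sam1Δ and 8.63% of 278 in sam2Δ/sam2Δ.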

How the data were processed

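Poly-A RNA-seq libraries of 9 samples, 3 each of sam1Δ/sam1Δ, sam2Δ/sam2Δ and wildtype, were compared. The authors aligned single reads of 75 bases with TopHat2 2.0.13 to the R64 assembly and made gene values with Cufflinks and Cuffnorm 2.2.1. The deposited values are signal, estimated reads per gene divided by a library factor; handling of reads that match several places, annotation release and strand setting are not given in the sources used here. The values keep fractions of a read, so count models planned as alternatives were not run. For the comparisons limma 3.58.1 (R 4.3.3, with a mean-variance trend) was run on log2(signal + 1) over genes reaching a signal of 10 in 3 or more libraries of a comparison, without further scaling. P values were adjusted by Benjamini-Hochberg over all genes tested. Cutoffs are in the report. Nothing in the sources says that replicates were separate cultures, so P values measure only the spread between these libraries, which may be technical.

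Genes were named when they had an adjusted P of at most 0.05, were among the 10 largest rises or falls past the cutoffs without overlap and with a mean of at least 50, stood at an end with a run of at least 3 neighbours without overlap, were the 3 highest or lowest of a family (all, in families under 4), led an end per kb, belonged to HML or the silencing list, or lay next to the 20 kb limit; others are marked. Members and lists were chosen with earlier results of these data known. Unique 75-base words were counted in the R64 sequence on both strands. Locus starts of the table count from 0 and are printed from 1; 5254 of 5264 loci of single genes had the annotated coordinates. The test was tested on simulated data, with changes planted in genes above a minimum level and a common spread for all genes. Its outcome is not given here, and the simulation does not speak for low or repeated members. Tables and figures used Python 3.11.15, numpy 2.4.6, pandas 2.3.3 and matplotlib 3.10.9. Alternatives were pseudocounts, filters, scaling factors, voom weights, a replicate block, fits over all libraries, other cutoffs and distance limits, and leaving out each library.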

Additional observations from a re-analysis of the deposited data

Results flagged for a closer look

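A set of 9 members differed between the mutants by the test of the difference itself, in the fit of all 9 libraries. The log2 differences, sam2Δ/sam2Δ minus sam1Δ/sam1Δ, were 8.83 for AIF1, 7.44 for PDR18, 7.18 for YNR071C, 4.72 for MAN2 and 3.26 for HXT17, all at XIV right; the first 4 of these rest on sam1Δ/sam1Δ libraries listed at 0, so their size depends on the pseudocount of 1. It was 2.41 for YIL175W, -3.34 for YGL262W, -1.42 for YML131W and -2.17 for AAD15. Groups of 3 libraries are too small to single out a library by its gap to the others.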

How the results depend on the processing

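Shares of all genes called are given below only where the main fit was kept, so elsewhere a changed count does not speak of the ends alone. Counts of called members ranged as follows when each library was left out in turn: 12 to 22 in sam1Δ/sam1Δ against wildtype (highest without wildtype replicate 1), 21 to 31 in sam2Δ/sam2Δ against wildtype and 7 to 14 in sam2Δ/sam2Δ against sam1Δ/sam1Δ (highest without wildtype replicate 1). With adjusted P limited to 0.05 they were 5 in sam1Δ/sam1Δ and 0 in sam2Δ/sam2Δ, where 25 members had an unadjusted P up to 0.05. Of all tested genes 6 passed that limit in sam1Δ/sam1Δ and 7 in sam2Δ/sam2Δ. With a limit of 10 kb they were 8 of 58, 13 of 58 and 5 of 60 in these 3 comparisons (13.8, 22.4 and 8.33%). Over all tested genes the shares were 1.15, 9.85 and 0.603%. A mean of at least 50 left 15 in sam2Δ/sam2Δ against wildtype and 5 in sam2Δ/sam2Δ against sam1Δ/sam1Δ. Leaving out members that share a locus left 15 of 135 in sam2Δ/sam2Δ against wildtype (11.1%), where 9.85% of all tested genes were called. The unadjusted cutoffs gave 41 in sam2Δ/sam2Δ against sam1Δ/sam1Δ. Ends with a median below 0 numbered 10 to 20 in sam1Δ/sam1Δ (10 without wildtype replicate 3, against 19) and 14 to 19 in sam2Δ/sam2Δ. The median share over libraries of members at a signal of 10, 50.5%, was 70.5% for any signal above 0, 37.9% at 50, 32.2% within 10 kb, 62.2% within 30 kb and 59.9% without shared loci. None of the called genes listed with alternatives changed its sign in them, while medians of ends did. Without wildtype replicate 1 and sam2Δ/sam2Δ replicate 3 together, a choice made after seeing the data, 30 members were called in sam2Δ/sam2Δ against wildtype and 8 against sam1Δ/sam1Δ. Same-numbered samples correlated from -0.85 to 0.69 and are not pairs; with a replicate block, counts were 14, 20 and 6, and YML131W (adjusted P = 0.0704), AAD15 and YIL175W were no longer called between the mutants. The planned count models were not run because the values keep fractions of a read. The cause of these changes was not tested, beyond fewer genes or samples entering. At 4.59 to 22.6 reads for a signal of 10, changes of genes near that level rest on few reads.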
